A study of Arabidopsis thaliana with 29 samples.

Results

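A group of 16 genes that were low in wild-type Arabidopsis seedlings and higher in mutants of CLF and of LHP1 is described here, out of 33602 genes counted by RNA-seq. Levels are given as CPM, the reads of a gene per 1000000 reads assigned to genes in its library. Members had to lie under 1.5 CPM in both libraries of the wild-type accession Col-0 and at 3 CPM or more in both libraries of clf-29, in tfl2-2 and in lhp1-6. Of 15254 genes under 1.5 CPM in Col-0, 19 met these limits. Of 8 floral genes set aside, 3 were among the 19, and 16 were left. The genes were selected on their levels in these 6 libraries, which are given as a description with no test.

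Polycomb group proteins keep developmental genes silent in cells where they are not needed. In Arabidopsis, Polycomb repressive complex 2 (PRC2) places 3 methyl groups on lysine 27 of histone H3 (H3K27me3) through the related enzymes CLF and SWN. LHP1 binds that mark, and the AtRING1 and AtBMI1 proteins belong to PRC1, which ubiquitinates histone H2A. Plants without CLF or LHP1 are known for curled leaves, early flowering and the expression of floral genes in leaves.

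The 14 RNA-seq libraries came from 2-week-old seedlings in the Col-0 background under 16 h of light. The mutants were clf-29 (CLF), tfl2-2 and lhp1-6 (LHP1), clf-29swn-21 (CLF and SWN), atring1a,b (AtRING1A and AtRING1B), atbmi1a,b (AtBMI1A and AtBMI1B) and swn-21 (SWN), with Col-0 as the wild type. There were 2 libraries for each genotype, except 1 each for tfl2-2 and lhp1-6, and 10 lists of H3K27me3 peaks covered all of these except clf-29swn-21 and swn-21. The methods call the libraries of clf-29 and atbmi1a,b and the RNA libraries of atring1a,b biological replicates. They do not say this of clf-29swn-21, swn-21 or Col-0, and for comparisons with those the p-values measure the spread between libraries, part of which may be technical. Per the labels, replicate 1 grew at 21 °C and replicate 2 at 22 °C, except that both swn-21 RNA libraries and the ChIP sample of lhp1-6 grew at 22 °C. The RNA of lhp1-6 grew at 21 °C, so its RNA and its peak list differ in temperature.

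Between 17277027 and 36205758 reads were assigned to genes in a library. The mutated gene was low where this could be read: CLF had at most 2.60 CPM in clf-29 and clf-29swn-21, LHP1 had 0 CPM in tfl2-2 and 1.71 CPM in lhp1-6, and AtRING1B had at most 1.72 CPM in atring1a,b. AtRING1A, by contrast, had 631 and 813 CPM in atring1a,b, and in atbmi1a,b AtBMI1B had 4.45 and 4.77 CPM, against 11.8 and 16.0 CPM in Col-0, while AtBMI1A was not lower than in Col-0. SWN itself had 88.2 and 87.2 CPM in the libraries labelled swn-21, against 46.8 and 68.2 CPM in Col-0. A count over the whole gene cannot check an allele that still makes transcript, and the study's own check of genotypes on RNA-seq read tracks was not repeated here. According to the methods, the double mutant clf-29swn-21 was harvested whole from medium and the other genotypes from soil, while the labels give every sample as lacking roots. In clf-29swn-21, 16 of 19 root genes lay above both Col-0 libraries. PYK10, the most abundant of them, had 3442 and 1681 CPM in clf-29swn-21, against 347 and 576 CPM in Col-0, and the other 18 summed to 146 and 35.2 CPM, against 2.70 and 6.64 CPM in Col-0. There, 15 seed genes summed to at least 16765 CPM, against at most 7.91 CPM in Col-0, and 8 leaf photosynthesis genes to at most 5106 CPM, against at least 13532 CPM in Col-0. All 15 seed genes lay above both Col-0 libraries there, and none was at 0. Differences between tissues and differences in transcription per cell therefore cannot be told apart in clf-29swn-21, and in any of these bulk samples fewer cells of a type cannot be told from less RNA per cell.

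The first group of members consists of 3 DNA-binding factors. SHP2 (AT2G42830, chromosome 2, 17820114 to 17824013, plus strand) is a MADS box factor that directs ovule identity and the margins of the fruit valves. It stood at 6.49 and 3.33 CPM in clf-29, 3.24 CPM in tfl2-2 and 4.26 CPM in lhp1-6, against 0.113 and 0 CPM in Col-0. The gene was therefore close to undetected in wild type, and it was the member with the highest ratio of the 4 mutant libraries to Col-0, 76.9-fold over 4 reads in Col-0. SHP2 overlaps AT2G42835 on the opposite strand. The sources used here do not say whether counting used strand, so reads of the pair may not be separable. AT2G42835 itself was at or near 0 in every library. That does not settle the question, since reads that lie on both genes may have been assigned to neither.

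ATHB54 (AT1G27045, chromosome 1, 9391609 to 9393188, plus strand) encodes a homeodomain leucine zipper factor. It had 33.1 and 49.7 CPM in clf-29, 9.41 CPM in tfl2-2 and 14.1 CPM in lhp1-6, against 0.704 and 1.12 CPM in Col-0. ATHB54 was the 1 member that was higher in both clf-29 libraries than in both LHP1 mutant lines. ZAT11 (AT2G37430, chromosome 2, 15706285 to 15707224, plus strand), is a C2H2 zinc finger factor whose levels stayed close to the limit. It had 3.59 and 3.67 CPM in clf-29, 3.9 CPM in tfl2-2 and 3.38 CPM in lhp1-6, against 1.41 and 1.03 CPM in Col-0, and its mean ratio of 2.98 was the smallest of the group.

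Members of the second group act in transport and in lipid and wax metabolism. SWEET10 (AT5G50790, chromosome 5, 20656193 to 20658001, minus strand) is a sugar transporter that is activated in the shoot apex when plants turn to flowering. It reached 8.55 and 24.5 CPM in clf-29, 18.1 CPM in tfl2-2 and 14.7 CPM in lhp1-6, against 0.282 and 0.234 CPM in Col-0. WSD1 (AT5G37300, chromosome 5, 14767426 to 14770396, plus strand) makes the wax esters of the stem cuticle. It had 4.33 and 5.4 CPM in clf-29, 9.93 CPM in tfl2-2 and 15.5 CPM in lhp1-6, against 1.44 and 0.0467 CPM in Col-0. The Col-0 libraries differed widely for WSD1, and the higher of them lay just under the limit of 1.5 CPM.

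The sequence upstream of the members was searched for motifs linked to Polycomb targets in Arabidopsis, over the 300 bases before the annotated start and on both strands. The telobox AAACCCT was found at 1 of 16 members, beside 8.89% of all 32834 promoters of this length, and GAGAGA at 4 of 16, beside 24.0%. The CArG box, which MADS box factors bind, was found at 1 of 16, beside 2.72%. A match is a description of letters and no evidence of binding. The promoters of SHP2, SWEET10 and WSD1, from the TAIR10.1 reference of RefSeq, are printed 5′ to 3′ as examples with the matches in capitals, chosen because the peaks of these genes are described in detail. AT1G09890 and IGMT3 hold 1 GAGAGA each and are not printed. SHP2 (chr2:17819814-17820113, plus strand) holds a CArG box that begins 267 bases before the start and a GAGAGA, read on the opposite strand, that begins 160 bases before it. SWEET10 (chr5:20658002-20658301, minus strand) holds 8 matches to GAGAGA, 7 of which overlap in 1 run. WSD1 (chr5:14767126-14767425, plus strand) holds a telobox that begins 29 bases before the start.
SHP2: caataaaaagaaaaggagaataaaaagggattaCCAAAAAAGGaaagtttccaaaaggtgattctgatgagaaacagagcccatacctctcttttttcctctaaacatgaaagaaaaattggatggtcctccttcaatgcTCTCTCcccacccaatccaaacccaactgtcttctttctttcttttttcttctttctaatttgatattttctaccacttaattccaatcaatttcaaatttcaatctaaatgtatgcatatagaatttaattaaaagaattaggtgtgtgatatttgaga
SWEET10: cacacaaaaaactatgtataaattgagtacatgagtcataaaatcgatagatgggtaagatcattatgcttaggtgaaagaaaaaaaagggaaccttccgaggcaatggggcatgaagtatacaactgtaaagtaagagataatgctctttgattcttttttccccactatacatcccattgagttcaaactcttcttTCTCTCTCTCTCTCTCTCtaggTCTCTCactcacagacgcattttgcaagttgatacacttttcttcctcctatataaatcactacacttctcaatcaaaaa
WSD1: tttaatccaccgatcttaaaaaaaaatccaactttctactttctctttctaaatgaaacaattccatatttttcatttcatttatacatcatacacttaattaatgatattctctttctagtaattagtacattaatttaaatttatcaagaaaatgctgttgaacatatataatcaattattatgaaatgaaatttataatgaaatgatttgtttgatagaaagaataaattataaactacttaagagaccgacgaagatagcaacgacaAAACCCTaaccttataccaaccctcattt

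KCR2 (AT1G24470, chromosome 1, 8673914 to 8676408, plus strand) is annotated as a beta-ketoacyl reductase, an enzyme type of fatty acid elongation. It had 4.02 and 4.39 CPM in clf-29, 8.52 CPM in tfl2-2 and 17.6 CPM in lhp1-6, against 1.1 and 0.514 CPM in Col-0. ORP4B (AT4G25850, chromosome 4, 13142164 to 13146966, plus strand) belongs to the oxysterol-binding proteins. ORP4B had 3.9 and 8.16 CPM in clf-29, 13.6 CPM in tfl2-2 and 23.7 CPM in lhp1-6, against 0.45 and 0.327 CPM in Col-0. The LHP1 mutant lines averaged 3.09 times the clf-29 level for ORP4B and 2.61 times for WSD1. Across all members, both LHP1 mutant lines lay above both clf-29 libraries for 9 of 16 genes, beside 28.1% of 15887 other genes at 3 CPM or more in those libraries. The reverse held for 1 of 16, beside 12.0% of those genes. The rule used these libraries, and the other genes were not chosen to be low in Col-0, so these shares are a description only. The LHP1 mutant lines grew at 21 °C and the clf-29 libraries at 21 °C and 22 °C, and the part of temperature was not tested.

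A further group of 5 members works in cell death and in cell wall breakdown or building. MC9 (AT5G04200, chromosome 5, 1153740 to 1155040, plus strand) is a metacaspase that clears the contents of xylem vessel cells after they die. It had 6.52 and 3.81 CPM in clf-29, 8.06 CPM in tfl2-2 and 9.73 CPM in lhp1-6, against 0.197 and 1.22 CPM in Col-0. TED7 (AT5G48920, chromosome 5, 19835337 to 19836258, plus strand), which acts in the secondary wall of differentiating vessels, had 7.15 and 4.44 CPM in clf-29, 6.4 CPM in tfl2-2 and 11.2 CPM in lhp1-6, against 0.591 and 1.36 CPM in Col-0. RNS3 (AT1G26820, chromosome 1, 9292446 to 9293862, minus strand), a ribonuclease of differentiating vessels, was the member nearest to the limit in a mutant. RNS3 had 7.18 and 3.04 CPM in clf-29, 7.29 CPM in tfl2-2 and 10.5 CPM in lhp1-6, against 0.535 and 0.841 CPM in Col-0.

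The remaining genes of this group encode enzymes that act on wall polysaccharides. AT4G08160 (chromosome 4, 5159033 to 5162867, minus strand), a glycosyl hydrolase of the xylanase family 10, lay between 4.68 and 7.79 CPM in the 4 mutant libraries, against 0.957 and 1.12 CPM in Col-0. AT1G09890 (chromosome 1, 3214049 to 3217603, minus strand), a rhamnogalacturonate lyase of the kind that cuts pectin, lay between 3.19 and 6.67 CPM, against 0.817 and 1.22 CPM in Col-0. For each of these 5 genes the 4 mutant values were all above both Col-0 values, as the rule demands.

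Because 3 members are vessel genes, a list of 16 other vessel and secondary wall genes was drawn up after the values of the members had been seen, and it is given without a test. Of the 16, 10 lay above both Col-0 libraries in both clf-29 libraries, beside 11.2% of 27703 detected genes. In the single libraries of tfl2-2 and lhp1-6, 14 did in each, beside 27.4% and 26.0% of detected genes. XCP1 (AT4G35350), a protease of vessel cells, had 28.4 and 16.2 CPM in clf-29, 31.3 CPM in tfl2-2 and 32.8 CPM in lhp1-6, against 10.5 and 7.01 CPM in Col-0. TED6 (AT1G43790), a vessel wall protein like TED7, had 20.3 and 9.41 CPM in clf-29, 18.3 CPM in tfl2-2 and 26.2 CPM in lhp1-6, against 1.75 and 4.63 CPM in Col-0. Summed over the list, the level was 209 and 146 CPM in clf-29, 230.2 CPM in tfl2-2 and 254 CPM in lhp1-6, against 103 and 83.3 CPM in Col-0. High levels of these members thus went with high levels of many genes of the same cell type, and the part that the amount of vessel tissue had in it was not tested. Of the regulators in the list, VND7, which switches on vessel formation, had 1.66 and 0.531 CPM in clf-29, 2.04 CPM in tfl2-2 and 1.94 CPM in lhp1-6, against 0.676 and 0.140 CPM in Col-0. VND6, MYB46 and MYB83 were also detected. In tfl2-2 and lhp1-6 VND6, VND7, MYB46 and MYB83 lay above both Col-0 libraries, but in the second clf-29 library each lay below the first Col-0 library. NST3 was at 0 in every library and NST1 had at most 0.290 CPM in clf-29 and the LHP1 mutant lines.

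**Figure D1:**
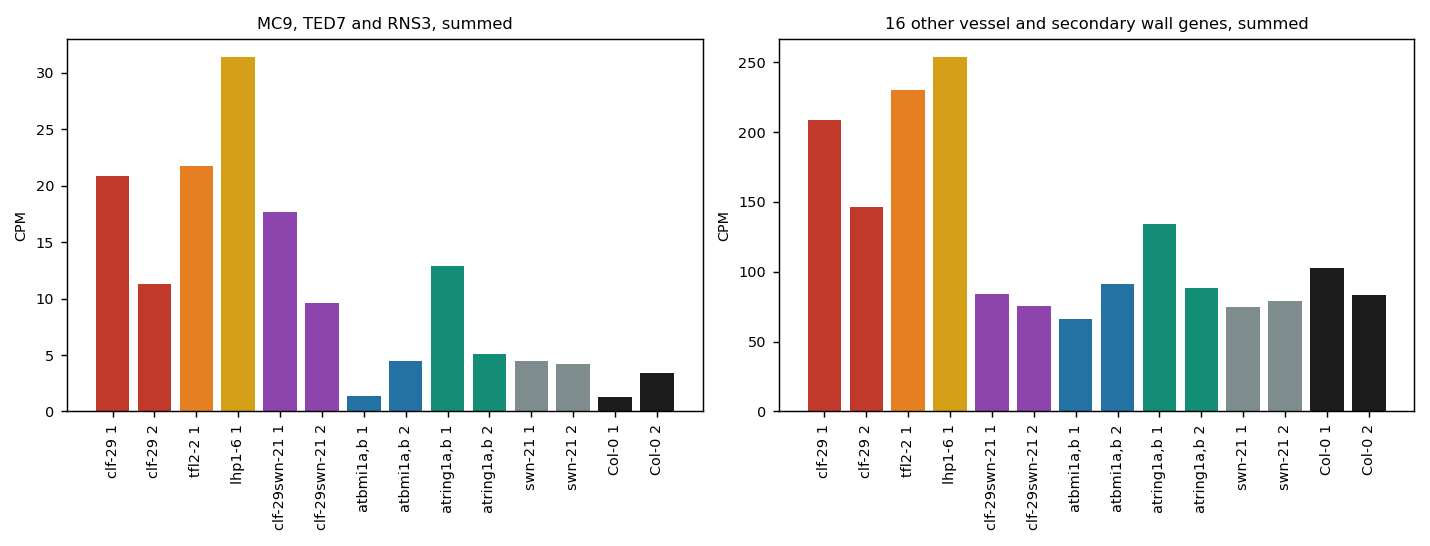
Summed CPM (y axis, from 0) in each of the 14 RNA-seq libraries (x axis, genotype and replicate) for MC9, TED7 and RNS3 (left) and for 16 other vessel and secondary wall genes (right), with 1 bar per library. The wall genes sum to 146 CPM or more in clf-29, tfl2-2 and lhp1-6, against 103 and 83.3 CPM in Col-0, while in clf-29swn-21 the 3 members sum to 17.6 and 9.61 CPM and the wall genes to 84.2 and 75.6 CPM.

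The last 4 members belong to none of these groups. IGMT3 (AT1G21110, chromosome 1, 7389981 to 7391603, minus strand) is an O-methyltransferase of indole glucosinolates, the defence compounds of the cabbage family. It had 7.2 and 4.05 CPM in clf-29, 11.2 CPM in tfl2-2 and 18.6 CPM in lhp1-6, against 1.3 and 1.36 CPM in Col-0. IGMT3 stands in a tandem array of near copies, and its neighbour IGMT2 (AT1G21120) had 12.7 and 7.53 CPM in clf-29, 20.7 CPM in tfl2-2 and 39.5 CPM in lhp1-6, against 5.41 and 2.34 CPM in Col-0. Reads of the copies may have been split or lost in counting, so the level of IGMT3 is uncertain.

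AT1G03710 (chromosome 1, 923390 to 924730, plus strand) encodes a protein of the cystatin and monellin superfamily. AT1G03710 had 5.25 and 10.7 CPM in clf-29, 24.6 CPM in tfl2-2 and 22.5 CPM in lhp1-6, against 0.563 and 0.14 CPM in Col-0. AT1G63295 (chromosome 1, 23473975 to 23475532, minus strand), of the remorin family, lay between 3.43 and 7.14 CPM in the 4 mutant libraries, against 0.563 and 0.982 CPM in Col-0. AT5G46871 (chromosome 5, 19017942 to 19018710, plus strand), annotated as a putative membrane lipoprotein, lay between 3.36 and 5.77 CPM, against 1.38 and 1.03 CPM in Col-0.

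Per length of transcript, the order of the members changed little at the top. Over the 4 mutant libraries ATHB54 averaged 16.8 RPKM (CPM per kilobase of transcript), AT1G03710 15.2 RPKM and SWEET10 12.6 RPKM, while AT1G09890 was lowest with 2.11 RPKM. The ranges of these 3 genes over the libraries overlapped, so their order is not firm.

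Several members lay close to the limits. Just inside were RNS3 with 3.04 CPM in a clf-29 library, WSD1 with 1.44 CPM in a Col-0 library and AT1G09890 with 3.19 CPM in a clf-29 library. Just outside were AT5G63580 and AT3G04960, each with 2.96 CPM in a clf-29 library, and AT5G62730 with 2.93 CPM. Limits of 1 CPM in Col-0 and 5 CPM in the mutants left 2 genes, AT1G03710 and SWEET10. Library scaling by TMM, which weighs libraries by their bulk of genes, gave 19 genes with 15 of the 16 among them. Without the first Col-0 library 97 genes would have met the limits, and without the first clf-29 library 32. Members did not lie next to each other on the chromosomes. None of the 32 genes next to a member was a member, and 7 of the 32 lay above both Col-0 libraries in all 4 mutant libraries, beside 6.55% of 27703 detected genes. Of the 32, 3 overlapped a member.

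**Figure D2:**
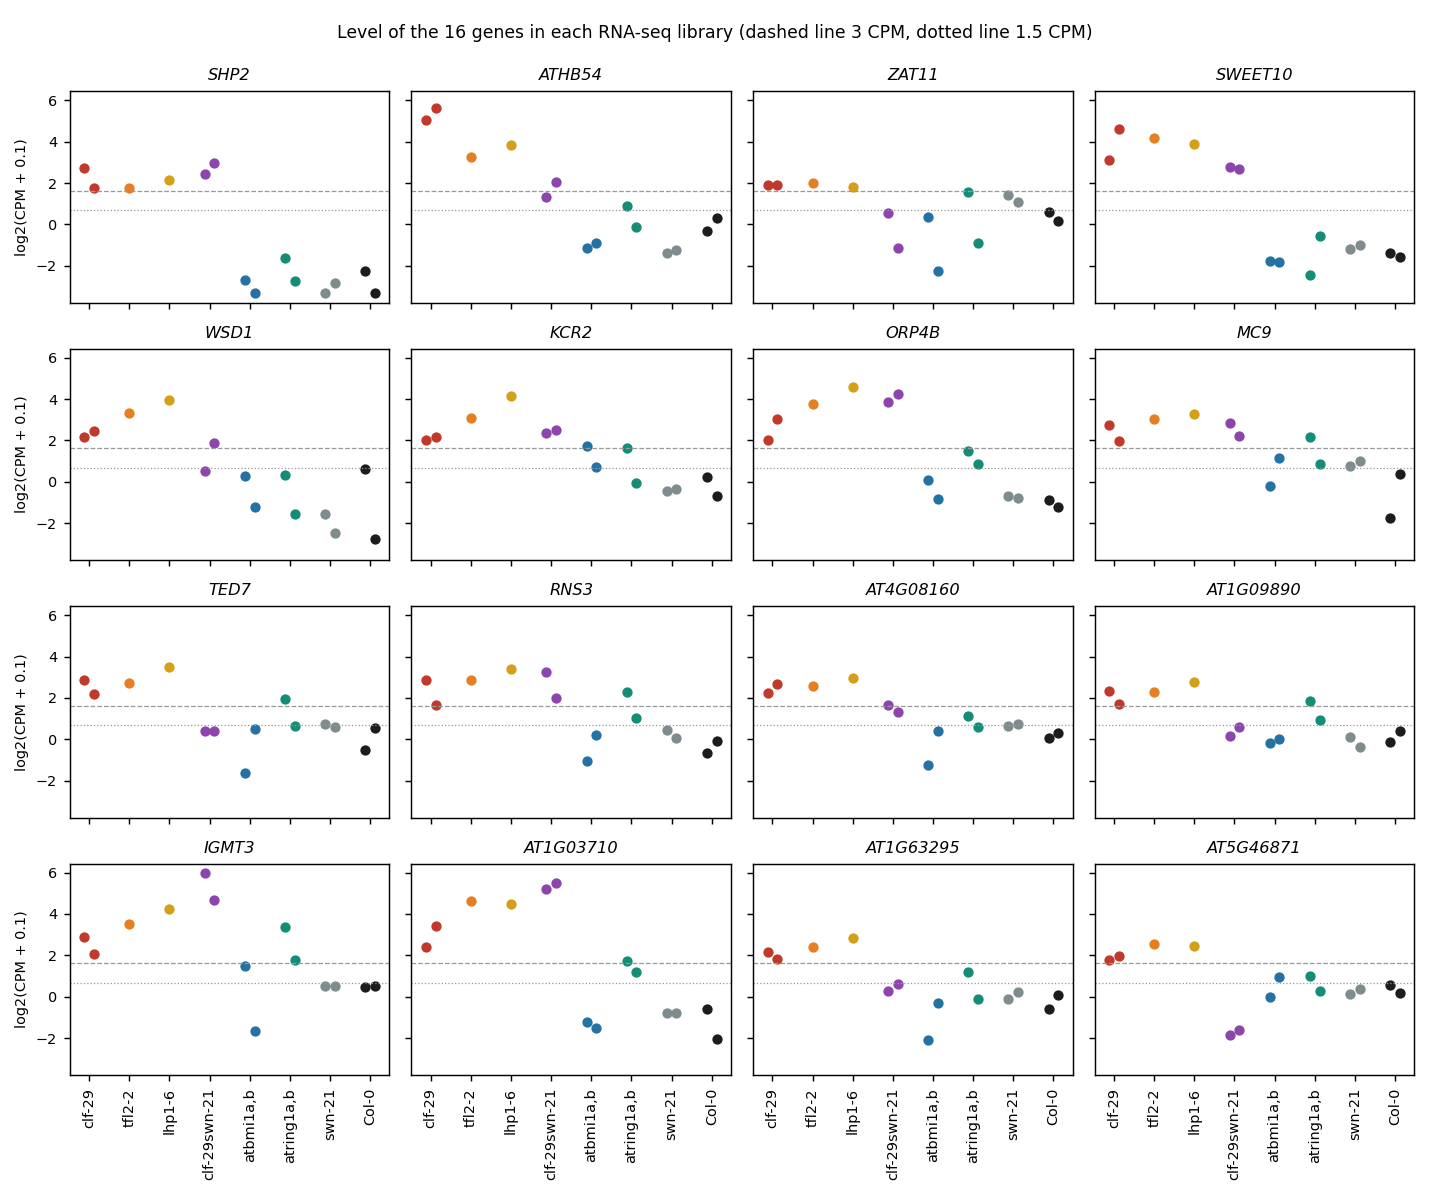
Level of each of the 16 genes as log2(CPM + 0.1) (y axis) in every RNA-seq library, by genotype (x axis), with 1 point per library and lines at 3 CPM (dashed) and 1.5 CPM (dotted). The 4 points of clf-29, tfl2-2 and lhp1-6 lie above the dashed line and the Col-0 points below the dotted line by the choice of genes, and in clf-29swn-21 the points spread from 62.5 CPM for IGMT3 to 0.179 CPM for AT5G46871.

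The members were next described in the genotypes that the rule did not use. Of these, clf-29swn-21 also carries the clf-29 mutation, on which the members were selected. Of the 16, 8 had 3 CPM or more in both clf-29swn-21 libraries, beside 5.02% of 15230 other genes under 1.5 CPM in Col-0. The 8 were AT1G03710, IGMT3, ORP4B, SHP2, SWEET10, KCR2, RNS3 and MC9. In atring1a,b the same held for 1 of 16 (IGMT3), beside 0.847% of the other low genes, in atbmi1a,b for 0 of 16, beside 0.775%, and in the libraries labelled swn-21 for 0 of 16, beside 0.250%. The first atring1a,b library alone had 7 members at 3 CPM or more, and the first atbmi1a,b library alone had 1. Many of the other low genes had no reads at all, so these shares are a low background.

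Compared with the Col-0 mean, the median member had 5.07 times the level in clf-29swn-21, 2.41 times in atring1a,b, 0.828 times in atbmi1a,b and 1.27 times in the libraries labelled swn-21. Both libraries lay above both Col-0 libraries for 11 members in clf-29swn-21, 8 in atring1a,b, 2 in atbmi1a,b and 7 in the libraries labelled swn-21. Among all other low genes the same held for 22.7% in clf-29swn-21, 12.2% in atring1a,b, 9.13% in atbmi1a,b and 9.36% in the libraries labelled swn-21. Among those with at least 1 read the shares were 43.8% in clf-29swn-21, 25.3% in atring1a,b, 19.8% in atbmi1a,b and 20.6% in the libraries labelled swn-21. Since low values in Col-0 chose the members, these differences from Col-0 were not tested.

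Tests were made between genotypes outside the rule, with edgeR's quasi-likelihood test over all 22060 genes that passed the filter on low counts, adjusted by the Benjamini-Hochberg method and called at an adjusted p under 0.05. All 16 members passed the filter, and all 16 also passed it in a fit of only the 8 libraries of these genotypes. The rule required reads in clf-29 and the LHP1 mutant lines, so the passing of all members is no result. By its labels, the comparison of clf-29swn-21 with the libraries labelled swn-21 differs by the CLF mutation. Growth medium and tissue also differ, and these cannot be told apart from CLF. The balance of growth temperatures differs as well. Of the 16, 8 rose and 1 fell, beside 18.5% and 16.2% of all genes tested. The same comparison raised 14 of 15 tested seed genes and 6 of 11 tested root genes and lowered 7 of 8 photosynthesis genes, and their part in the members' changes was not tested. Of 3699 other low genes that passed the filter, 42.1% rose, so the share of members that rose was close to that of low genes in general. The median log2 fold change was 2.62 over the members, 1.89 over the other low genes and 0.07 over all genes. With growth temperature in the fit, 10 members were called rather than 9. That temperature term draws on the genotypes grown at both temperatures, since both swn-21 RNA libraries grew at 22 °C.

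AT1G03710 had the firmest rise. It had 37.3 and 45.2 CPM in clf-29swn-21, against 0.483 and 0.481 CPM in the libraries labelled swn-21, a log2 fold change of 6.23 ± 0.56 (SE, edgeR adjusted p = 1.15e-04). SHP2 had 5.37 and 7.76 CPM in clf-29swn-21, against 0 and 0.0401 CPM in the libraries labelled swn-21 (log2 fold change 7.81 ± 1.17, edgeR adjusted p = 0.00111). With 284 reads against 1, the ratio for SHP2 was 287, with an exact 95% counting interval of 51.0 to 11358, and the interval covers counting error only.

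ORP4B and IGMT3 both rose with a log2 fold change of 4.86, with SE of 0.55 and 0.99. ORP4B had 14.4 and 18.9 CPM in clf-29swn-21, against 0.532 and 0.481 CPM in the libraries labelled swn-21 (edgeR adjusted p = 2.99e-04). IGMT3 had 62.5 and 25.6 CPM, against 1.35 and 1.32 CPM (edgeR adjusted p = 0.00518). SWEET10 rose to 6.66 and 6.37 CPM in clf-29swn-21, against 0.338 and 0.401 CPM in the libraries labelled swn-21 (log2 fold change 3.94 ± 0.74, edgeR adjusted p = 0.00328). For AT1G03710, SHP2, ORP4B, IGMT3 and SWEET10 both clf-29swn-21 libraries lay above both libraries labelled swn-21.

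ATHB54 rose, but not to its level in clf-29. It had 2.4 and 4.05 CPM in clf-29swn-21, against 0.29 and 0.321 CPM in the libraries labelled swn-21 (log2 fold change 3.20 ± 0.50, edgeR adjusted p = 0.00132), while clf-29 had 33.1 and 49.7 CPM. KCR2 rose to 4.97 and 5.67 CPM, against 0.628 and 0.681 CPM (log2 fold change 2.84 ± 0.65, edgeR adjusted p = 0.00886). RNS3 rose to 9.34 and 3.88 CPM, against 1.26 and 0.962 CPM (log2 fold change 2.40 ± 0.70, edgeR adjusted p = 0.0253). The calls of IGMT3, KCR2 and RNS3 were lost, at edgeR adjusted p of 0.0514 to 0.157, when either library labelled swn-21 was left out, and that of RNS3 also without the first clf-29swn-21 library.

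AT5G46871 was the 1 member that fell. It had 0.179 and 0.232 CPM in clf-29swn-21, against 1.02 and 1.2 CPM in the libraries labelled swn-21 (log2 fold change -2.60 ± 0.49, edgeR adjusted p = 0.00346). The levels rest on 9 reads in clf-29swn-21, against 51 in the libraries labelled swn-21. In clf-29 the gene had 3.36 and 3.81 CPM, and the rule required clf-29 to lie above Col-0. Both clf-29swn-21 libraries lay below both Col-0 libraries, a difference that was not tested.

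The other 7 members did not pass the test. WSD1 was nearest to it, with 1.36 and 3.53 CPM in clf-29swn-21, against 0.242 and 0.0802 CPM in the libraries labelled swn-21 (log2 fold change 3.75 ± 1.31, edgeR adjusted p = 0.0505). MC9 had 7.08 and 4.51 CPM, against 1.6 and 1.88 CPM (log2 fold change 1.56 ± 0.77, edgeR adjusted p = 0.144). TED7, the vessel wall gene, had 1.22 and 1.22 CPM, against 1.6 and 1.4 CPM, a difference within its error (log2 fold change -0.48 ± 0.77). AT4G08160, AT1G09890, AT1G63295 and ZAT11 had log2 fold changes between -1.59 and 0.69. Of the 15 vessel and wall genes that were tested, 2 rose and 0 fell in the same comparison.

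The comparison of clf-29swn-21 with the libraries labelled swn-21 was repeated against atbmi1a,b, an alternative chosen after the SWN counts were seen. Again 8 members rose and 1 fell, beside 16.8% and 16.0% of all genes tested, while 39.1% of the other low genes rose. AT4G08160 was called in this comparison, a call lost when any of 3 of the 4 libraries was left out (edgeR adjusted p between 0.0812 and 0.142). KCR2 was not called, with a log2 fold change of 1.04 ± 0.59 (edgeR adjusted p = 0.208).

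**Figure D3:**
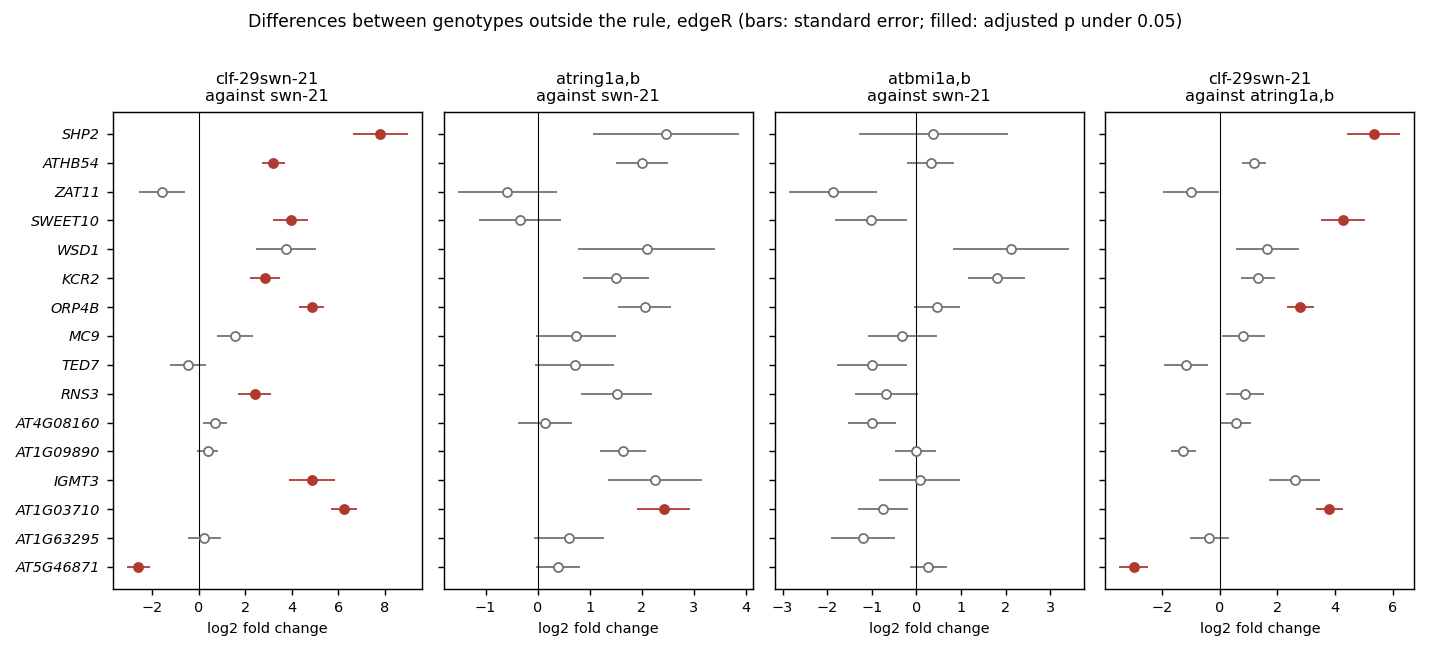
Log2 fold change (x axis) of each of the 16 genes (y axis) in 4 comparisons between genotypes that the rule did not use, with bars for the standard error from edgeR and filled points for an adjusted p under 0.05. In clf-29swn-21 against the libraries labelled swn-21, 8 filled points lie right of 0 and 1, AT5G46871, lies left of it, while atring1a,b against the same libraries has 1 filled point and atbmi1a,b none.

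Fewer members passed the test in the PRC1 mutants, and fewer genes in general did so too. Against the libraries labelled swn-21, 1 of 16 members was called in atring1a,b, beside 3.21% of all genes and 7.98% of other low genes. The members' median log2 fold change was 1.51, against 0.56 over other low genes. AT1G03710 had 3.24 and 2.23 CPM in atring1a,b, against 0.483 and 0.481 CPM in the libraries labelled swn-21 (log2 fold change 2.42 ± 0.51, edgeR adjusted p = 0.0386). It lost the call when any of the 4 libraries was left out, with edgeR adjusted p between 0.0705 and 0.301, and DESeq2 called 4 members, beside 11.4% of all genes. At an unadjusted p under 0.05 and an absolute log2 fold change above 1 there were 6, beside 15.5%. Among other low genes the shares were 16.1% with DESeq2 and 29.6% by the criterion on unadjusted p.

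ATHB54, ORP4B and AT1G09890 came next without passing. ATHB54 had 1.77 and 0.823 CPM in atring1a,b, against 0.29 and 0.321 CPM (log2 fold change 2.01 ± 0.50, edgeR adjusted p = 0.0649). ORP4B had 2.74 and 1.69 CPM, against 0.532 and 0.481 CPM (log2 fold change 2.06 ± 0.51, edgeR adjusted p = 0.0655). AT1G09890 had 3.57 and 1.84 CPM, against 0.967 and 0.681 CPM (log2 fold change 1.64 ± 0.45, edgeR adjusted p = 0.0848). SHP2 had 0.221 and 0.0484 CPM and SWEET10 0.0831 and 0.581 CPM in atring1a,b, both close to undetected.

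The atring1a,b libraries differed from each other in step. Of the 16, 15 were higher in the first library, by a median of 2.51 times, and SWEET10 was the exception. Among other low genes with at least 1 read, 57.9% were higher in the first library. The sum over the 16 vessel and wall genes was 135 CPM in the first and 88.5 CPM in the second atring1a,b library, against 103 and 83.3 CPM in Col-0, and the first library was also grown at 21 °C rather than 22 °C. The 15 seed genes summed to between 208 and 3305 CPM in atring1a,b, against at most 7.91 CPM in Col-0. The part of any of these in the members' levels was not tested. In the other genotypes with a pair of libraries, between 7 and 8 members were higher in the first.

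In atbmi1a,b 0 of 16 members were called against the libraries labelled swn-21, beside 1.29% of all genes and 3.89% of other low genes. At an unadjusted p under 0.05 and an absolute log2 fold change above 1 there was 1 member (KCR2) in edgeR, beside 8.94% and 24.4%. DESeq2 called 0, beside 5.19% and 10.7%. KCR2 had 3.18 and 1.55 CPM in atbmi1a,b, against 0.628 and 0.681 CPM in the libraries labelled swn-21 (log2 fold change 1.80 ± 0.64, edgeR adjusted p = 0.262). The median log2 fold change of the members was -0.17, and IGMT3 was uneven between the libraries, with 2.68 and 0.217 CPM.

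Set against each other, the PRC1 double mutants showed 0 called members, beside 0.154% of all genes and 0.514% of other low genes. At an unadjusted p under 0.05 and an absolute log2 fold change above 1 there were 7 members in edgeR, beside 6.55% and 16%. All 7 were higher in atring1a,b. DESeq2 called 2, beside 2.26% and 4%. AT1G03710 was nearest, with 3.24 and 2.23 CPM in atring1a,b, against 0.331 and 0.253 CPM in atbmi1a,b (log2 fold change 3.17 ± 0.52, edgeR adjusted p = 0.0671). In each pair the first value is the library grown at 21 °C and the second the library grown at 22 °C. Each temperature has 1 library per genotype, so the comparison is balanced for temperature. With growth temperature in the fit, 0 members were called. Whether temperature acted differently in the PRC1 mutants was not tested. Between clf-29swn-21 and atring1a,b, 4 members were higher and 1 lower in clf-29swn-21, beside 13.8% and 13.6% of all genes. Of the other low genes 31.7% were higher, so the members' share was not above it. The criterion on unadjusted p was met by 8 members, beside 29% of all genes and 51.1% of the other low genes. The 4 were SHP2 (log2 fold change 5.34 ± 0.93), SWEET10 (4.28 ± 0.75), AT1G03710 (3.81 ± 0.48) and ORP4B (2.80 ± 0.48), with edgeR adjusted p between 7.64e-04 and 0.00329. AT5G46871 was the lower one, by a log2 fold change of -2.99 ± 0.49 (edgeR adjusted p = 0.00227).

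Genes related to the members by function gave the setting. Of 31 tested floral and flowering MADS box genes, the family of SHP2, 18 rose and 6 fell in clf-29swn-21 against the libraries labelled swn-21, beside 18.5% and 16.2% of all genes, and 1 rose and 1 fell in atring1a,b, beside 3.21% called in either direction. Of 20 tested flower meristem and carpel regulators, 15 rose and 0 fell in clf-29swn-21, and 4 rose in atring1a,b. Of 4 tested stamen and tapetum genes, 1 rose and 1 fell in clf-29swn-21. All 4 KNOX genes, which keep shoot meristems undifferentiated, rose in clf-29swn-21, and none of the 4 was called in atring1a,b or atbmi1a,b.

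H3K27me3 was a readout that the rule did not use. The authors called peaks in each library separately, and a peak counted for a gene when it shared 1 bp or more with the stretch from 1000 bp upstream of the start to the gene's end. Coordinates are those of TAIR10, and gene positions come from the RefSeq annotation of TAIR10.1, whose nuclear chromosomes contain all peaks. In the first Col-0 list 10 of 16 members had a peak, beside 28.7% of 14486 other low genes and 21.4% of all 32835 annotated genes counted. In the second Col-0 list, which has 2983 peaks rather than 5055, 4 members had one, beside 18.4% and 15.6%. Of the 16, 14 had a peak in at least 1 of the 10 lists, beside 49.6% of the other low genes.

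Many members also had peaks in the mutants in which they were higher than in Col-0. A peak was listed at 10 and 8 members in clf-29, 10 in tfl2-2 and 13 in lhp1-6. In atbmi1a,b there were 11 and 4, and in atring1a,b 13 and 3, where the first list covers 26.0 Mb and the second 4.94 Mb. In Col-0, atbmi1a,b and atring1a,b the first and second lists differed by 6 members or more, so the presence of a peak did not separate the genotypes. The peak lists hold no read depth. The study's read statistics give fewer usable reads for the second than for the first ChIP library of each genotype with a pair, and the part of depth in these differences was not tested.

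MC9 was the 1 member with a peak in all 10 lists. Its peak in the first Col-0 list spanned 2558 bp, from position -415 to 2142 relative to the start, and covered the whole gene. SWEET10 was wholly covered in both clf-29 lists, tfl2-2, lhp1-6, the first atbmi1a,b list, the first atring1a,b list and the first Col-0 list, and uncovered in the 3 other lists. TED7 and ZAT11 had no peak in any list, and ATHB54 had a peak in 1 list only, outside its gene body. ATHB54, ZAT11 and TED7 thus had no peak in either Col-0 list.

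Where a Col-0 peak was present, its length in clf-29 and the LHP1 mutant lines differed between members. At SHP2 and WSD1, whose promoters are shown with the genes' levels, the peak was shorter in those mutants. SHP2 was covered over 41.2% and 41.5% of the gene in clf-29, 27.2% in tfl2-2 and 52.0% in lhp1-6, against 93.4% in the first Col-0 list. The peaks in these mutants lay toward the 5′ part of SHP2 and ended between 1181 and 2266 bp from its start, against 3641 bp in Col-0. WSD1 was covered over 51.0% and 58.4% in clf-29, 46.0% in tfl2-2 and 46.4% in lhp1-6, against 100% in the first Col-0 list. In the first atbmi1a,b list the cover was 85.8% for SHP2 and 100% for WSD1, and the second Col-0 and atbmi1a,b lists had no peak at either gene.

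ORP4B was covered over 44.3% and 62.3% in clf-29, 38.0% in tfl2-2 and 42.8% in lhp1-6, against 62.6% in the first Col-0 list, so the second clf-29 list was nearly equal to it. AT1G09890 was covered over 32.5% and 46.2% in clf-29, 26.6% in tfl2-2 and 19.1% in lhp1-6, against 48.0% and 24.4% in the Col-0 lists, which overlapped the mutants. AT1G63295 was covered over 71.1% and 0% in clf-29, 0% in tfl2-2 and 66.0% in lhp1-6, against 83.1% and 98.3% in Col-0. In the first atbmi1a,b list the cover was 29.8% for ORP4B, 22.3% for AT1G09890 and 76.2% for AT1G63295, also below the first Col-0 list. The first atring1a,b list had 100%, 91.5% and 92.2%. Shorter cover was therefore not limited to clf-29 and the LHP1 mutant lines. Altogether 5 of the 10 members with a gene body peak in the first Col-0 list were less covered in all 4 lists of clf-29, tfl2-2 and lhp1-6, beside 16.0% of 5210 genes chosen in the same way, and 0 were more covered in all 4, beside 6.08%. The first Col-0 list selects these genes, and with no peak in the second list for SHP2, WSD1 and ORP4B the comparison has no replicate on the Col-0 side. RNS3 was covered more in 3 of the 4 lists, with 50.7% in the first clf-29 list, 95.3% in tfl2-2 and 69.5% in lhp1-6, against 12.5% in the first Col-0 list, but 0% in the second clf-29 list.

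**Figure D4:**
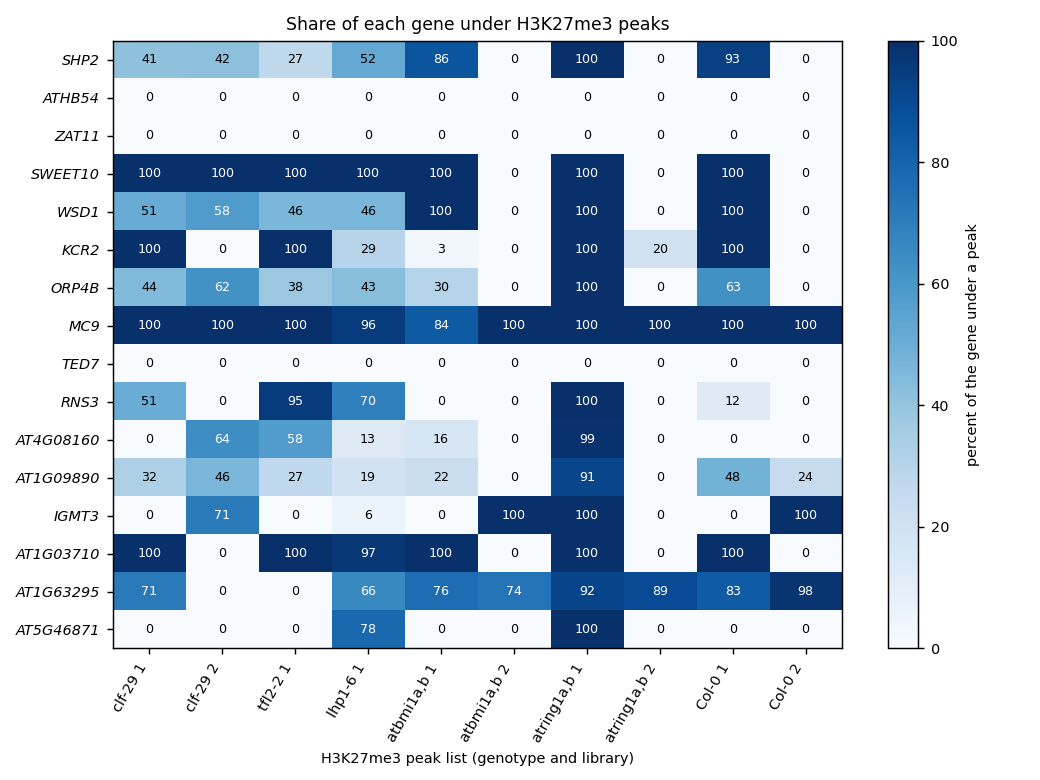
Percent of each gene's length (colour and printed value) under H3K27me3 peaks for the 16 genes (rows) in the 10 peak lists (columns, genotype and library). MC9 is covered in every list, SHP2 and WSD1 are covered in part in clf-29, tfl2-2 and lhp1-6, against 93.4% and 100% in the first Col-0 list, and ATHB54, ZAT11 and TED7 stay at 0.

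**Figure D5:**
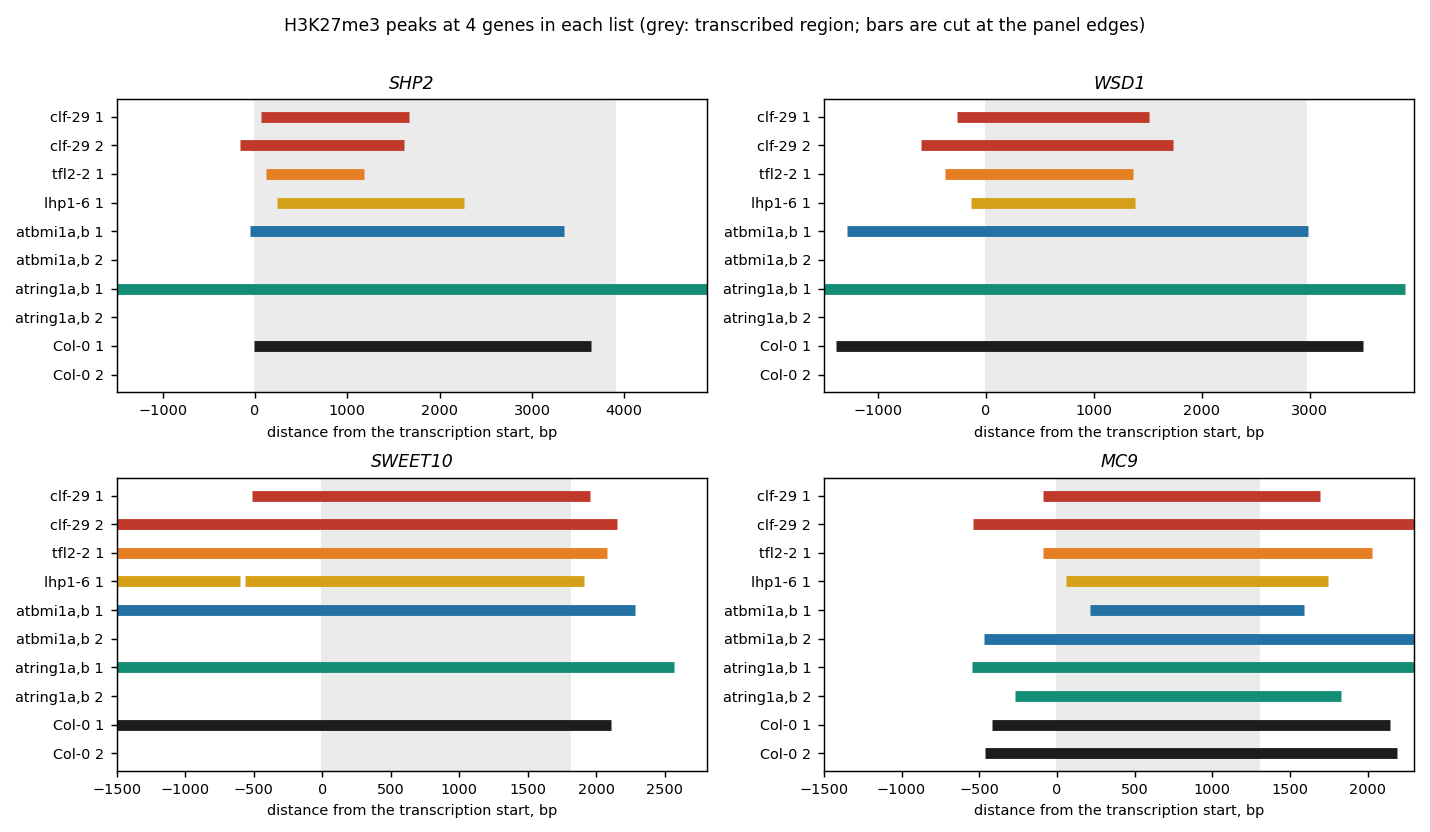
H3K27me3 peaks (bars) at SHP2, WSD1, SWEET10 and MC9 in each of the 10 lists (y axis) by distance from the transcription start in bp (x axis), with the transcribed region in grey. At SHP2 the bars of clf-29, tfl2-2 and lhp1-6 end between 1181 and 2266 bp, against 3641 bp in the first Col-0 list, and the second Col-0 list has no bar at SHP2, WSD1 or SWEET10.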

How the data were processed

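The authors sequenced RNA and H3K27me3 ChIP libraries, mapped reads to TAIR10 (TOPHAT for RNA, BWA for ChIP) and deposited raw counts per gene from HTSeq for 14 RNA-seq libraries and 10 peak lists called per library with MACS. The deposited peak files give a score per peak as the caller wrote it. A table of the authors' own log2 fold changes and p-values was not used, and 5 ChIP control libraries without antibody were not analysed here.

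Counts assigned to no gene were excluded (2.66% to 3.43% per library), and CPM was taken over the rest. Gene totals lay between 17277027 and 36205758. The members and gene lists were chosen with earlier results of these data known. Genes were named when they ranked high among the members, were called, lay near a limit, were DNA-binding factors or stood in a list, and the remaining members were added so that every member is accounted for.

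Genes passing filterByExpr (22060) were tested in 1 fit of 14 libraries and 7 groups, in which tfl2-2 and lhp1-6 form 1 group, with TMM scaling and robust edgeR quasi-likelihood tests, and standard errors were taken from the log2 fold change and its F value. Alternatives were DESeq2, other scaling, no filter, fewer libraries, growth temperature, a replicate block, the study's criterion, and libraries left out. Versions were R 4.3.3, edgeR 4.0.16, limma 3.58.1, DESeq2 1.42.0, Python 3.11.15, pandas 2.3.3, numpy 2.4.6, scipy 1.17.1 and matplotlib 3.10.9. All 16 members matched the annotation, as did 32835 of the 33602 genes counted.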

Additional observations from a re-analysis of the deposited data

How the results depend on the processing

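Over all alternatives of the called members, 223 values kept their direction and their call, 17 lost the call and 0 changed direction. In atring1a,b against the libraries labelled swn-21, edgeR called 1 member, DESeq2 4, the fit with a replicate block 2 and the criterion of an absolute log2 fold change above 1 with an unadjusted p under 0.05 called 6, while leaving out a library gave 0. That criterion called 1 member in atbmi1a,b against the libraries labelled swn-21, 7 in atring1a,b against atbmi1a,b and 8 in clf-29swn-21 against atring1a,b. In atring1a,b against atbmi1a,b, DESeq2 called 2 members, and no filter on low counts and a fit of the 8 libraries outside the rule called 1 each. Leaving out a library gave 6 to 9 called members in clf-29swn-21 against the libraries labelled swn-21, 5 to 6 against atring1a,b and 7 to 10 against atbmi1a,b. The cause of these changes was not tested.

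Over all genes, atring1a,b against the libraries labelled swn-21 gave 708 calls, 2523 with DESeq2, 1184 with the replicate block, 3424 under the criterion on unadjusted p and 10 to 390 without a library. For atbmi1a,b these were 285, 1145, 428, 1973 and 15 to 107. In atring1a,b against atbmi1a,b there were 34 calls, 499 with DESeq2, 59 with growth temperature in the fit, 1445 under that criterion and 0 to 36 without a library. Without a library, clf-29swn-21 gave 3843 to 5505 calls against the libraries labelled swn-21 (7636 with all libraries), 3244 to 4121 against atring1a,b (6025), and 4313 to 5263 against atbmi1a,b (7240).

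The limits of 1 and 5 CPM left 2 members, and leaving out a library of the rule gave 17 to 97. Members at 3 CPM or more ranged from 1 to 7 in atring1a,b and from 0 to 1 in atbmi1a,b with a library left out. With peaks of score 100 or more, 2 members had a peak in the second Col-0 list, 5 in the second clf-29, 7 in the first atbmi1a,b and 1 in the second atring1a,b list. With 50% of the gene covered, 6 had one in tfl2-2, 7 in lhp1-6 and 6 in the first atbmi1a,b list. Replicate numbers went with growth temperature in all pairs of RNA libraries but swn-21. Replicate differences across genes correlated with r between 0.272 and 0.761 among clf-29, atbmi1a,b, atring1a,b and Col-0, and between -0.135 and 0.0641 for pairs with clf-29swn-21 or swn-21, so same-numbered libraries deviated together only among the other 4 genotypes. With the replicate block, 0 members were called in atring1a,b against atbmi1a,b, and apart from the 2 in atring1a,b against the libraries labelled swn-21 the block moved no count of called members by over 1.5 times.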
